A study of Homo sapiens with 12 samples.

Results

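The DNA replication genes of S phase are the genes whose proteins copy the genome, and 42 of them were chosen by name. All 42 were found among the 27348 genes of the deposited expression table, and all 42 were placed on GRCh37. The cells were K562, an established human line from chronic myeloid leukemia that carries BCR-ABL and can mature toward the erythroid or the megakaryocytic lineage. They were infected with lentivirus carrying the vector with no hairpin (shCT) or either of a pair of shRNAs, sh1 and sh2, that target the long isoform of PHF19, and were selected with puromycin. PHF19 and its homolog MTF2 are accessory proteins of PRC2, the Polycomb complex that methylates histone H3 at lysine 27 and keeps genes silent. RNA-seq comprised 6 libraries, 2 each for shCT, sh1 and sh2. ChIP-seq comprised 6 libraries, 1 for each condition, and the 3 peak lists analysed were those of PHF19 in shCT cells and of MTF2 in both shCT and sh2 cells. The PHF19 and MTF2 samples also held fly chromatin and an antibody to fly H2Av as a spike-in. Peaks of PHF19 in sh1 and sh2 cells and of IgG were not analysed here.

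Replication starts when ORC, CDC6 and CDT1 load the ring of MCM2 to MCM7 onto DNA in G1. In S phase CDC45 and the GINS complex join the ring to make the active helicase, and DNA polymerases alpha, delta and epsilon copy the strands with the PCNA clamp and its RFC loader. Many of these genes are switched on together before S phase by the E2F transcription factors, which are held back by RB1 and its relatives until cyclin-dependent kinases act. The question asked of these data was how strongly the replication genes were expressed in K562 cells and whether PHF19 or MTF2 lay on them, before and after PHF19 was depleted.

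The expression table gives 1 value per gene that can be used here, the authors' mean normalized count over all 6 libraries, control and depleted together. No value per library was used, so the depth of the libraries and the spread between replicates are unknown, and the depletion of PHF19 itself was not checked here. PHF19 had a mean of 7797 normalized counts and MTF2 one of 2797, as the authors' means. The cell identity was checked on marker genes. All 12 erythroid and megakaryocyte precursor markers were at 632.2 or above, among them GATA1 at 7043, and HBG2, a fetal globin, was highest at 171800. Of 9 lymphocyte markers, 5 were below 10 and CD3D alone, at 961.7, was at 100 or more. LYZ, at 2331, was the single one of 6 granulocyte and monocyte markers at 100 or more, and EPCAM, at 3071, the single one of 6 fibroblast and epithelial markers. The 3 liver markers were all below 10.

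The promoters of the replication genes were searched for the sequences that E2F factors are known to bind. RefSeq promoters, from 250 bases before to 50 bases after an annotated start, were given for 38 of the 42 genes (54 promoters), and MCM4, MCM5, GINS4 and RPA2 had no entry. The words searched were TTTCCCGC, TTTGGCGC, TTTGCCGC and TTTCGCGC on both strands. Of the 38 genes, 23 held at least 1 of these words, or 60.5%, whereas 6.93% of 8395 expressed genes did, an expressed gene being one whose mean reached 100 normalized counts. By promoter the share was 44.4% of the 54, against 3.32% of all 35093 promoters of that length. In 7 genes a word lies in front of an annotated start and the whole stretch around it, up to 30 bases on either side, is outside every annotated exon. The sequences of these genes, which come from different steps of replication, are shown. Each is given 5′ to 3′ on the strand of the gene, with the E2F word in capitals and up to 30 bases on either side, from the RefSeq promoter table (GRCh38.p14), matched exactly to GRCh37 for the coordinates.
MCM6 (helicase subunit, chr2:136634066-136634133, minus strand): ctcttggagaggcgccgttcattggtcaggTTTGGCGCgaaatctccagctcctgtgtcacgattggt
CDT1 (helicase loader, chr16:88870132-88870196, plus strand): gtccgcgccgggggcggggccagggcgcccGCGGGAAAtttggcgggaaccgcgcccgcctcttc
GINS2 (helicase activator, chr16:85722561-85722621, minus strand): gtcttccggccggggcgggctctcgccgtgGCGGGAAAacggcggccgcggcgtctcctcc
POLA1 (catalytic subunit of polymerase alpha, chrX:24711868-24711935, plus strand): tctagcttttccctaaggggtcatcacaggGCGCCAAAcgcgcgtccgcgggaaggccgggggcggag
PCNA (sliding clamp, chr20:5107290-5107357, minus strand): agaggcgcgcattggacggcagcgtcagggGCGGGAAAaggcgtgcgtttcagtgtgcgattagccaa
TIPIN (fork protection, chr15:66649052-66649119, minus strand): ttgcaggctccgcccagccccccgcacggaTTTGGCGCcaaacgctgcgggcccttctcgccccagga
UHRF1 (reader of newly copied DNA, chr19:4909966-4910033, plus strand): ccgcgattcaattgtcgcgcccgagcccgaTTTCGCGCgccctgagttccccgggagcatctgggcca

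In MCM6 and TIPIN a further word on the opposite strand overlaps the one shown. MCM6 held 4 words, the most of any of the genes, as 2 such overlapping pairs. In CDT1, GINS2 and PCNA the word reads GCGGGAAA, which is TTTCCCGC on the other strand. The UHRF1 word shown lies in front of a later RefSeq start, and downstream of the start of the canonical transcript at 4909513. The 31 words of the 23 genes clustered close to the start. By their leftmost base, 25 began before it, of which 18 began within 100 bases of it, and 6 began after it. The median position of the 31 words was -39 bases from the start, upstream being negative. Words of CLSPN and GINS3 that began at -5 and of MCM3 that began at -4 ran across the start.

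**Figure D1:**
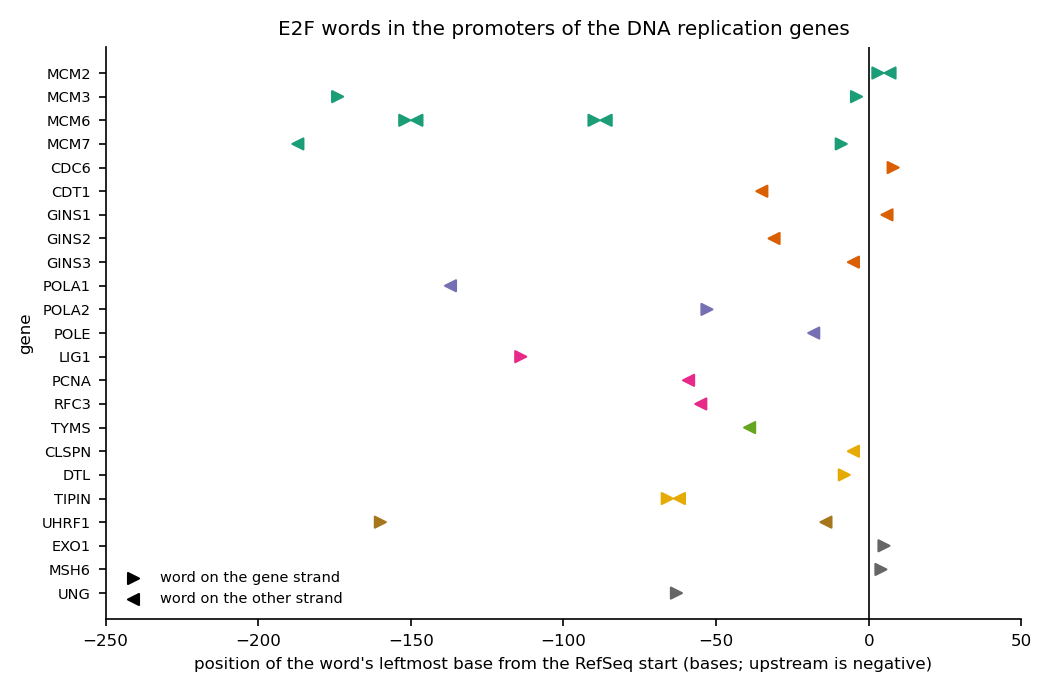
Position of each E2F word in the RefSeq promoters of the 23 replication genes that hold one, in bases from the annotated start (0), with arrowheads giving the strand of the word and colors the role of the gene. Of the 31 words, 25 begin before the start, and MCM6 has 4.

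The words were found in all 4 MCM genes with a promoter entry (MCM2, MCM3, MCM6 and MCM7), in 5 of 7 genes of origin licensing and firing and in all 3 genes of fork protection and replication control. All 3 DNA repair genes held a word, and 3 of 5 genes of polymerases and primase. The clamp, loader and lagging strand had 3 of 8 genes with a word, and chromatin and histone supply 1 of 4. Of 4 nucleotide supply genes 1 held a word, TYMS, which makes thymidylate, while RRM1, RRM2 and TK1 had none of these letters in the window. With the shared core of 6 bases (each word without its first and last letter, so every longer word also counts), 36 of the 38 genes had a match, but so did 54.4% of the expressed genes. FEN1, the flap nuclease of the lagging strand, and POLD1, the catalytic subunit of polymerase delta, had no match to the core.

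Other promoter words were counted in the replication genes and in 34 genes of mitosis with a promoter entry. TTTGAA, the core of the CHR element known from genes of G2 and M, occurred in 2 of 38 replication genes (RRM1 and UNG, 5.26%) and in 26 of 34 mitotic genes (76.5%), with 13.4% among expressed genes. The E2F words of 8 bases showed the opposite order, with 2 of 34 mitotic genes (5.88%). CCAAT, the NF-Y box, was found in 24 of 38 replication genes (63.2%), in 27 of 34 mitotic genes (79.4%), in 10 of 17 Polycomb reference genes (58.8%) and in 43.8% of expressed genes. The GC box GGGCGG, bound by SP1, was found in 30 of 38 (78.9% against 78.2%), so that its share was that of the background, and the E-box CACGTG in 6 of 38 (15.8% against 13.1%). The replication promoters were rich in CpG, with a median ratio of observed to expected CpG of 0.90 over 54 promoters, against 0.827 for expressed genes and 0.66 for 32 promoters of 17 Polycomb reference genes, developmental genes known to be held silent by PRC2. These shares describe letters in a window and were not tested.

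All 42 replication genes were expressed in these cells. Their mean normalized counts ran from 788.3 for TIPIN to 20100 for MCM7, with a median of 4460, whereas the median of the 14012 placed genes with a mean of at least 10 was 782.2. Divided by the length of all annotated exons, so that genes could be compared, the level ran from 150.5 normalized counts per kb for GINS1 to 5238 for PCNA, a 34.8-fold range. The median of the 42 was 996.2 per kb, against 148.3 for the genes with a mean of at least 10 and 240.1 for the expressed genes. All 42 lay above the first of these medians, and 32 were in the top 25% and 18 in the top 10% of the 14012 genes. GINS1, GINS3, POLA1 and GINS4, at 150.5 to 217.2 per kb, lay below the median of the expressed genes. In bulk RNA, the share of cells in S phase and the amount of RNA per cell cannot be told apart. These are values without replicate error, since 1 mean per gene was used.

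**Figure D2:**
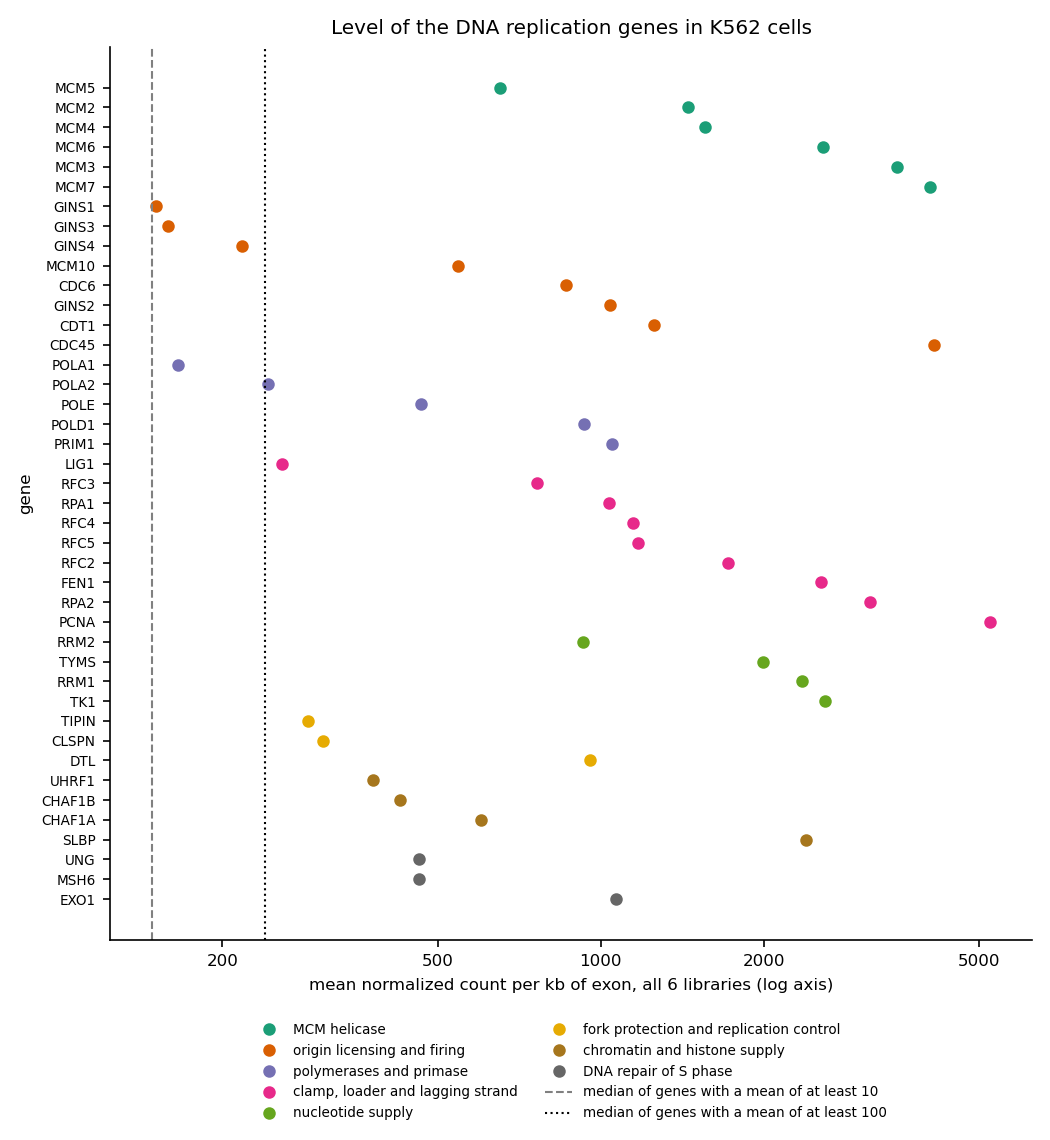
Level of each of the 42 replication genes, as the authors' mean normalized count over 6 libraries divided by exon length (counts per kb, log axis), grouped by role. Every gene lies to the right of the dashed median of genes with a mean of at least 10 (148.3 per kb), and PCNA is highest at 5238 per kb.

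By the median level per kb, the 4 nucleotide supply genes (2174) and the 6 helicase subunits (2066) stood highest of the roles, and the 3 genes of fork protection and replication control (306.2) lowest. MCM7 had 4053 per kb, MCM3 3529 and MCM6 2577, followed by MCM4 at 1556, MCM2 at 1447 and MCM5 at 650.4. The 6 subunits sit in the ring in equal numbers, while their RNA levels per kb spread from 650.4 to 4053. CDC45, which completes the active helicase, had 4133 per kb and ranked 284 of 14012 genes. The 4 GINS subunits, which also form a complex of equal parts, were lower, with 1039 per kb for GINS2, 217.2 for GINS4, 158.6 for GINS3 and 150.5 for GINS1. Of the licensing factors, CDT1 had 1253 per kb and CDC6 863.8, and MCM10, which acts when origins fire, had 543.6.

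Among the polymerases, PRIM1, the primase, was highest with 1047 per kb, followed by POLD1 with 930.0, POLE, the leading strand polymerase, with 466.1, POLA2 with 243.1 and POLA1 with 165.5. Of the clamp and its loader, PCNA ranked 225 of 14012 genes, and RFC2, RFC5, RFC4 and RFC3 had 1721, 1170, 1145 and 763.8 per kb. RPA2 and RPA1, which coat single-stranded DNA, had 3144 and 1036 per kb. FEN1 had 2553 per kb and LIG1, the ligase that joins the lagging strand fragments, 257.8.

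Of the nucleotide enzymes, TK1, thymidine kinase, had 2596 per kb, RRM1, the large subunit of ribonucleotide reductase, 2354, TYMS 1994 and RRM2, the small subunit, 928.5, which became 2609 with the length of the canonical transcript, against 2992 to 3347 for TYMS, RRM1 and TK1. SLBP, which binds the stem-loop of histone messages, had 2391 per kb, while CHAF1A and CHAF1B, which place histones on new DNA, had 600.0 and 425.0, and UHRF1, which brings DNA methylation to newly copied DNA, 378.9. DTL, which directs the destruction of CDT1 in S phase, had 956.4 per kb, and the fork proteins CLSPN and TIPIN 306.2 and 287.8. The repair genes had 1067 per kb for EXO1, 461.9 for MSH6 and 461.0 for UNG.

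The order of the genes depended on the length used, within roles as well. With the length of the canonical transcript, an alternative added after the data were seen, levels rose by a median factor of 1.36, by more than 1.5 times for 18 of the 42 genes and by 4.15 for MSH6. POLA2 (823.5 per kb) then stood above POLE (736.7), MCM4 (3773) above MCM6 (2840) and MSH6 (1919) above EXO1 (1280), each the reverse of the order by all exons. The 3 lowest genes were GINS4, CLSPN and GINS1 in place of GINS1, GINS3 and POLA1. MCM7, CDC45 and PCNA were the 3 highest with either length. MSH6 also overlaps FBXO11 on the opposite strand, and whether the counting used strand is not given in the sources used here.

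No replication gene had a PHF19 or MTF2 peak at its promoter, taken as 2.5 kb on either side of any annotated TSS. For PHF19 in shCT cells the count was 0 of 42, where 6.55% of the 10739 placed expressed genes had such a peak. For MTF2 it was 0 of 42 in shCT cells, against 4.13%, and 0 of 42 in sh2 cells, against 5.92%. No replication gene gained an MTF2 promoter peak in sh2 cells, where 2.3% of the genes did, and none lost one, where 0.512% did. Over all 3 lists together the count was again 0 of 42, against 10.2%. At these shares 2.75, 1.74 and 2.49 of 42 genes would have a promoter peak of the 3 lists, and 4.28 one of any list. The difference of 0 from these numbers was not tested, so the count of 0 is not read as a property of the replication genes by itself. Among the 6786 genes whose mean lay in the range of the 42, the shares were 5.85%, 2.36% and 3.46%, with 8.09% over all 3 lists. This comparison was added after the data were seen, and at 8.09% the number for 42 genes would be 3.4. The peak lists come from 1 library each and hold no signal, so binding below the authors' peak threshold was not measured.

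**Figure D3:**
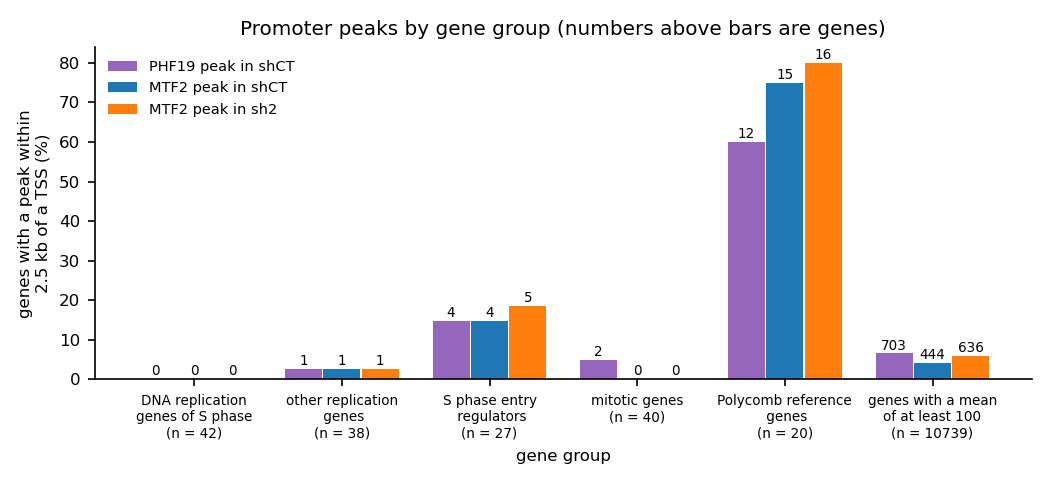
Share of the genes of each group with a peak within 2.5 kb of a TSS (%), for PHF19 (shCT) and MTF2 (shCT and sh2), with the number of genes above each bar. The 42 replication genes have 0 in each list, and 12, 15 and 16 of the 20 Polycomb reference genes have a peak.

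Within the wider target region used in the methods, which begins 2.5 kb before the TSS and runs through the transcript, 0 of 42 replication genes had a PHF19 peak (7.97% of expressed genes), 0 had an MTF2 peak in shCT cells (5.12%) and 2 had one in sh2 cells (7.07%), so that 2 counted as sh2 alone (2.59%) and 0 as shCT alone (0.643%). These were UNG, the glycosylase that removes uracil from DNA, and MSH6, the mismatch recognition protein. The UNG peak, on chromosome 12 from 109562174 to 109563511, lay 13.38 kb past the end of the canonical transcript, inside 1 of 14 annotated transcripts, and ranked 14623 of the 18287 peaks of its list. MSH6 had 4 peaks of 1160 to 2294 bp on chromosome 2, inside 2 of 26 transcripts that begin far upstream, and the nearest of them ended 17.71 kb before the canonical start. They ranked from 11451 to 16332. With the canonical transcript of each gene, none of the 42 had a peak of any list, against 9.81% of the expressed genes. The shares by list were 6.58% for PHF19, 3.9% for MTF2 in shCT cells and 5.37% in sh2 cells, with 2.04% in sh2 alone and 0.568% in shCT alone.

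The nearest peaks were therefore described by their distance from the canonical TSS. For PHF19 in shCT cells the distance ran from 11.67 kb for RPA2 to 4654 kb for GINS1, with a median of 154.5 kb. For MTF2 it ran from 8.999 kb for RFC5 to 1658 kb for RFC3 in shCT cells, with a median of 107.1 kb, and from 6.021 kb for GINS2 to 969.5 kb for RFC3 in sh2 cells, with a median of 90.75 kb. The medians over expressed genes were 172.5, 157.4 and 121.5 kb in the same order. Within 10 kb of the TSS there were 0, 1 and 2 replication genes, and 8.22%, 5.29% and 7.64% of the expressed genes. The nearest MTF2 peak was closer in sh2 than in shCT cells for 32 of the 42 genes and farther for 10. That share, 76.2%, was near the 79.6% of the expressed genes, and the sh2 list holds more and wider peaks (18287 with a median width of 2598 bp against 12502 with 1780 bp).

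**Figure D4:**
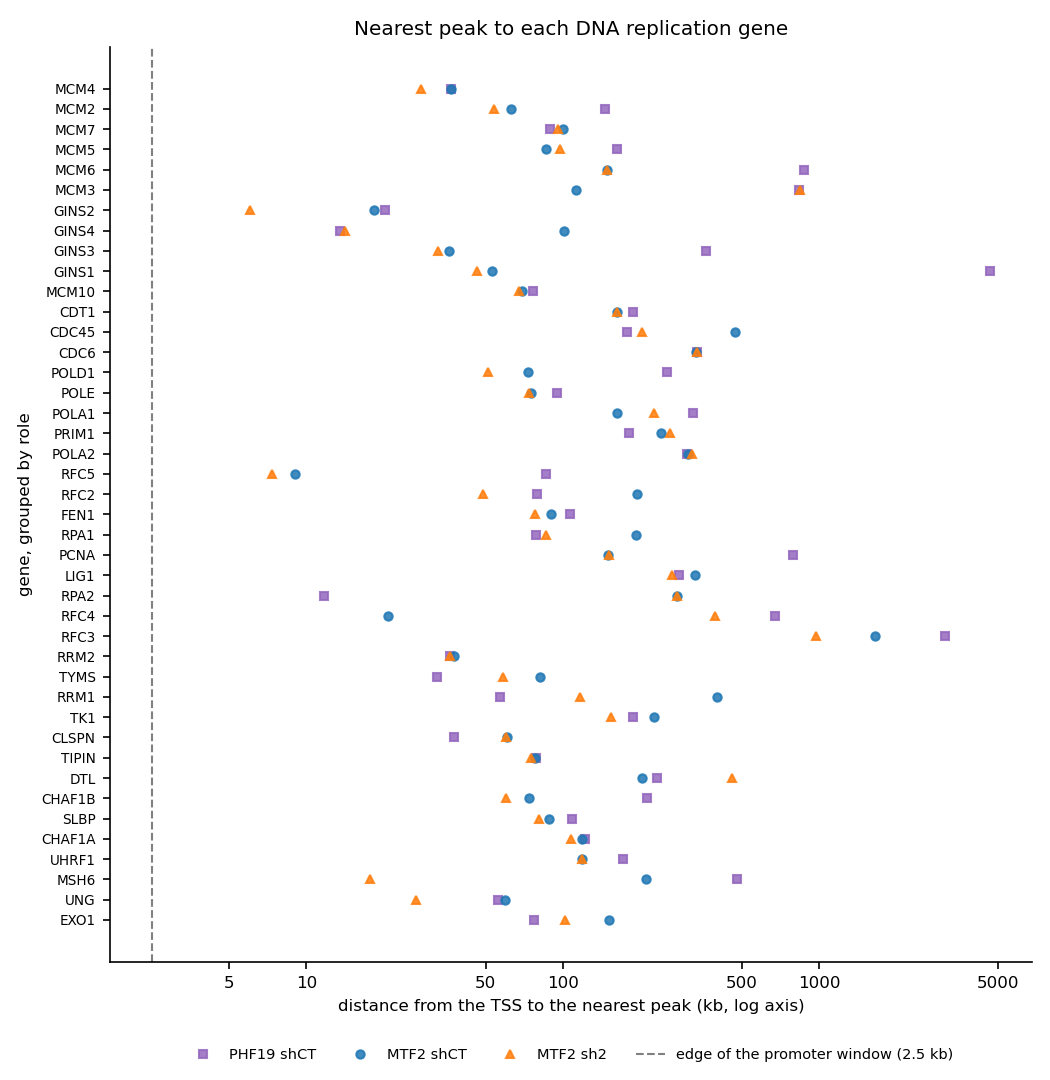
Distance from the canonical TSS of each of the 42 replication genes to the nearest peak edge (kb, log axis), for PHF19 in shCT cells and for MTF2 in shCT and in sh2 cells, by marker and color, with genes grouped by role. All points lie to the right of the 2.5 kb edge of the promoter window, the nearest being GINS2 at 6.021 kb in sh2 cells.

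RFC5, a small subunit of the clamp loader, had the closest MTF2 peak in shCT cells. This peak, on chromosome 12 from 118443939 to 118445509, lay upstream of RFC5 and ranked 3493 of 12502. In sh2 cells a peak of 4920 bp from 118442271 to 118447190 covered the same place, 7.318 kb from the canonical TSS and 4.203 kb from the nearest annotated one, and ranked 1796 of 18287. PHF19 had no peak within 86.4 kb of RFC5. Upstream of GINS2, PHF19 (20.29 kb) and MTF2 in shCT cells (18.41 kb) both lay on the TSS of C16orf74, where the MTF2 peak ranked 390 of 12502. The nearer peak in sh2 cells, 6.021 kb from GINS2 on chromosome 16 from 85728581 to 85730106, was 1526 bp wide and ranked 16444 of 18287.

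RRM2 had peaks of all 3 lists at similar distances upstream, 36.29 kb for PHF19, 37.76 kb for MTF2 in shCT cells and 36.39 kb for MTF2 in sh2 cells. All of them were closest to CYS1, a gene of primary cilia, and the MTF2 peaks ranked 1189 and 833 in their lists. TYMS, for which PHF19 was 32.3 kb away, had that peak on the TSS of CLUL1. For 11 of the 42 genes the nearest MTF2 peaks of shCT and sh2 cells overlapped each other, and for 4 the nearest PHF19 peak overlapped the nearest MTF2 peak of shCT cells.

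**Figure D5:**
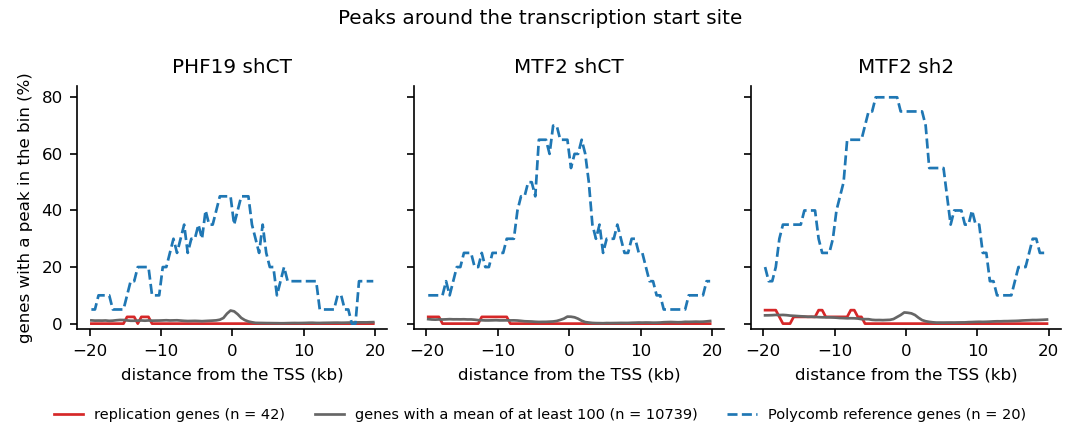
Share of genes with a peak (%) in each bin of 500 bp from 20 kb upstream to 20 kb downstream of the canonical TSS, for the 42 replication genes, the 10739 expressed genes and 20 Polycomb reference genes, in each of the 3 peak lists. The replication genes have no peak in any bin closer than 6.021 kb, and the Polycomb reference genes reach 45, 70 and 80% near the TSS.

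Other genes of the same pathway were described in the same way. Of 38 further replication genes, such as the ORC subunits, all had a mean of at least 100. In each of the 3 lists 1 had a promoter peak, against 6.55%, 4.13% and 5.92% of the expressed genes. This was CHTF18, which loads the clamp in place of RFC1. Its peaks on chromosome 16 (for MTF2 in shCT cells from 849846 to 852821, rank 1107 of 12502) lay downstream of the canonical TSS and were counted through another annotated TSS. An E2F word was found in 9 of the 29 such genes with a promoter entry, or 31%.

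The regulators of entry into S phase, which act before the replication genes, were looked at next. Of 27 such genes, 4 had a PHF19 promoter peak in shCT cells, 4 an MTF2 peak in shCT cells and 5 an MTF2 peak in sh2 cells. The shares over the expressed genes were 6.55%, 4.13% and 5.92% in the same order. CCND2, cyclin D2, had the highest ranked PHF19 peak, which was 19 of 5621, on chromosome 12 from 4376000 to 4378664. This peak ended upstream of the promoter window of the canonical TSS, at 4382928, and was counted through another annotated TSS. CCND1, cyclin D1, had MTF2 peaks that ranked 461 of 12502 in shCT and 257 of 18287 in sh2 cells. CDKN1A, the kinase inhibitor p21, with a mean of 280.6 normalized counts, had a PHF19 peak of 5379 bp that ranked 361 and MTF2 peaks that ranked 4342 and 10261. CDK6, CDKN1C and CDKN2D are named after their values were seen: CDK6 had an MTF2 peak in sh2 cells alone, CDKN1C had MTF2 peaks in both, and CDKN2D a PHF19 peak alone. None of the genes E2F1 to E2F8 or of RB1, RBL1 and RBL2 had a promoter peak. Of the 40 mitotic genes, 2 had a PHF19 peak (NDC80, rank 3614 of 5621, and ANLN, rank 5258), where 6.55% of the expressed genes did. None had an MTF2 peak, where 4.13% (shCT) and 5.92% (sh2) of the expressed genes did. The PHF19 list was used whole, without the tag filter of the study's methods, for these counts and for the background shares. The 20 Polycomb reference genes, developmental genes of which some were named from these same libraries and which are therefore no independent check, had 12, 15 and 16 promoter peaks in the order of the lists, and a median mean count of 1.87.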

How the data were processed

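RNA-seq reads were mapped by the authors with TopHat to hg19, keeping reads with a single match, counted over RefSeq exons and normalized with DESeq2. The deposited score used here is the mean over the 6 libraries of counts divided by size factors. The 5 remaining columns hold the authors' comparison of both shRNAs with shCT (fold changes, their errors and p-values) and were not used. ChIP-seq reads were mapped with Bowtie to hg19 with dm3, and peaks were called per library with MACS at a shift of 100 bp. The deposited peaks were used whole, with the score after the peak name as a rank within its list. The tag filter of the study's methods was not applied, since the lists give no tag counts. The track lines name IgG as the control of the MTF2 lists. The line of the PHF19 list names sh4, and so does that of the MTF2 sh2 list, a name absent from the labels, so the control of the PHF19 list is not certain. Tool versions are not stated in the sources at hand. Depth per library is unknown.

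Of 27348 symbols, 23257 were matched directly and 1019 through older names to GENCODE 44 on GRCh37. A peak counted with an overlap of at least 1 bp. Genes with a mean of at least 100 served as background. With 1 library per peak list and 1 mean per gene, no test was made, and the planned tests over libraries were not possible. The search for peaks was tested on simulated data (200 of 200 planted genes were recovered among 10739). The peaks were planted inside the window searched around the canonical TSS, so this checks the overlap and distance steps alone. It does not cover the count over all annotated TSSs, the target region or the matching of symbols. Python 3.11.15, numpy 2.4.6, pandas 2.3.3 and matplotlib 3.10.9 were used. The named genes are all 42 members, up to 3 of each other list by the score of their promoter peak, and PHF19, MTF2 and CDKN1A. Other names were added after their values were seen. Members and lists were chosen with earlier results of these data known.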

Additional observations from a re-analysis of the deposited data

How the results depend on the processing

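Of 42 alternatives, 28 kept their value within a tolerance and 14 did not. The tolerance was a factor of 1.5 for counts and medians and the 95% binomial interval for shares. Within it, the 32 genes in the top 25% became 34 (longest transcript), 33 (canonical transcript) and 39 (no filter), and the median distances became 127, 102 and 76.4 kb with the nearest of all annotated TSSs. In 15 of 16 alternatives the number of replication genes with a promoter peak stayed at 0. All but those with a window of 5 kb only narrow the window or the peak list, so a count of 0 could not change. With 5 kb it was 0 for PHF19, 0 for MTF2 in shCT cells and 2 for MTF2 in sh2 cells (RFC5 and GINS2). The target region counts of 0 could not change either, so the 28 that kept their value include settings fixed in advance. The 2 genes with an MTF2 peak in the target region in sh2 cells became 0 with the canonical transcript, 0 with peaks at or above the median score, and 1 with equal numbers of MTF2 peaks. The share of genes with a promoter peak was 8.1% (mean of at least 10), 7.81% (no filter) and 5.85% (mean in the range of the 42) for PHF19, 7.44%, 11.1% and 2.36% for MTF2 in shCT cells, and 10.2%, 15.6% and 3.46% in sh2 cells. The last background was added after the data were seen. With the E2F core of 6 bases, 36 genes in place of 23 held a word. No paired analysis was possible because the table gives 1 mean over all libraries, and leaving out a replicate was not possible for the same reason. Peaks of different libraries depend on depth, which is unknown here, so numbers of peaks in shCT and sh2 cells cannot be read as amounts of binding.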

Other observations

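Promoter peaks were less frequent in the classes with a mean of 1000 or more, which hold all but 2 of the 42 replication genes, than in each lower class. Of the 10264 genes with a mean normalized count below 10, 16% had an MTF2 promoter peak in shCT cells and 22.8% in sh2 cells. The shares were higher in the 3273 genes from 10 to below 100, at 18.3% and 24.4%, and lower in the 4482 genes from 100 to below 1000, at 7.01% and 9.97%. Of the 4841 genes with a mean from 1000 to below 5000, which include 26 replication genes, 2.25% and 3.31% did. Of the 1416 genes at 5000 or more, which include 14, the shares were 1.48% and 2.05%. For PHF19 the shares did not fall steadily, being 7.42% below 10, 13.2% from 10 to below 100, 7.61% from 100 to below 1000, 5.93% from 1000 to below 5000 and 5.3% at 5000 or more. These shares come from 1 library per list and were not tested.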
